A study of Mus musculus with 6 samples.

Results

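The cells described here were CD4 conventional T cells of mouse breast tumours in which mRNA of S1pr1, the receptor for sphingosine 1-phosphate, was detected and mRNA of Pdcd1, Tnfsf8 and Tnfsf11 was not. They were chosen by raw unique molecular identifiers (UMIs, 1 per captured mRNA molecule) in single-cell RNA sequencing. A cell had at least 500 UMIs, at least 200 genes, at most 10% mitochondrial UMIs, at least 2 UMIs of Cd3d, Cd3e and Cd3g together, at least 1 of Cd4 and at most 1 of Fcer1g. It had 0 UMIs of Cd8a, Cd8b1, Foxp3, Trdc and Csf1r, at least 1 UMI of S1pr1, and 0 of Pdcd1, Tnfsf8 and Tnfsf11. This gave 677 cells of 46891 that passed the quality limits (1.44%), and of 3710 CD4 cells that passed the gate before the last conditions (18.2%).

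A brain metastasis cell line of breast cancer had been injected into the brain (BrM tumours) or into the mammary fat pad (MFP tumours) of female C57BL/6J mice aged 10 to 12 weeks. Both groups received the same line, and tissue without a tumour was not analysed here. Each site had 3 libraries of sorted viable CD45-positive leukocytes, with 7083 to 8986 barcodes and 50692794 to 70944735 UMIs per library. Whether the libraries came from separate mice is not given in the labels. The p-values therefore reflect the variation among these libraries, part or all of which may be technical.

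T cells leave tissues and lymphoid organs along a gradient of sphingosine 1-phosphate, which is high in blood and lymph and low in tissue. The receptor S1PR1 reads this gradient. The transcription factor KLF2 maintains S1pr1 transcription in resting T cells, while receptor stimulation lowers KLF2 and induces CD69, which removes S1PR1 from the cell surface. T cells that stay in a tissue typically have little S1pr1 and Klf2 mRNA.

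The cells were unevenly spread over the libraries. The numbers were 360, 35 and 53 in the BrM libraries and 80, 129 and 20 in the MFP libraries, in order of replicate, so that BrM 1 alone contributed 53.2%. Their median depth was 5468, 3606 and 3057 UMIs per cell in the BrM libraries, and 4832, 4360 and 4900.5 in the MFP libraries, in order of replicate. Median mitochondrial shares lay between 3.02% and 3.82%. The 15 pairs of libraries had 8 to 31 cell barcodes in common, and none of those belonged to the 677 cells. A further split ran through both sites: BrM 1, MFP 1 and MFP 2 had the lower UMI totals, and BrM 2, BrM 3 and MFP 3 the higher totals and more macrophage mRNA.

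S1pr1 lies on chromosome 3 (115710433 to 115715072, minus strand, GRCm38). Among the 677 cells, 334 had 1 UMI of S1pr1, 182 had 2 and 161 had 3 or more, with a maximum of 12. The S1pr1 level summed over the cells was 334, 425 and 462 UMIs per 1000000 UMIs (CPM) in BrM 1 to 3 and 414, 396 and 387 CPM in MFP 1 to 3, a level that the selection itself fixed. Just outside the rule lay 735 gated CD4 cells with 0 UMIs of S1pr1 and of the 3 activation genes, at a median of 4340 UMIs per cell. Another 269 cells had S1pr1 and exactly 1 UMI of the activation genes, at a median of 4953 UMIs. Since 1 UMI decided membership for many cells, an unknown number of cells on either side of the limit were placed by sampling.

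The remaining 2 markers of the label, which the rule did not use, were present in all libraries. Trat1, which encodes an adaptor that stabilises the T cell receptor complex, had 155, 238 and 197 CPM in BrM 1 to 3, and 140, 176 and 204 CPM in MFP 1 to 3. Slamf1, a co-receptor of the SLAM family, had 116, 83.8 and 53.1 CPM in BrM and 74.6, 68.2 and 50.97 CPM in MFP. After each cell had been thinned to 2000 UMIs, Trat1 was detected in 25.7% of 668 S1pr1-positive cells and in 0.0492% of 6097 macrophages. Slamf1 was detected in 16.5% and 0.295%. Among 1668 activated CD4 cells (defined below), thinned alike, Trat1 was detected in 17.99% and Slamf1 in 11.03%. The 2 markers thus set the cells apart from macrophages far more than from other CD4 cells. Klf2 and Il7r, described below, were less specific. Thinned alike, Klf2 was detected in 46.3% of S1pr1-positive cells and 17.6% of macrophages, and Il7r in 52.8% and 9.04%. S1pr1 itself was detected in 1.98% of the thinned macrophages. All 8 general T cell markers were expressed. Of the genes that define other cells, Retnlg, Cxcr2, Flt3, Clec9a, P2ry12, Sall1, Trdv4 and Il13 were at 0 UMIs over all 677 cells, as were Foxp3, Cd8a and Cd8b1 by the rule. The summed level of the 10 NK cell markers was 77.3 to 145 CPM in the BrM libraries and 110 to 734 CPM in the MFP libraries, the highest in MFP 3.

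As a share of gated CD4 cells, the S1pr1-positive cells were more frequent in 1 brain tumour library than elsewhere. The share was 31.0% in BrM 1 (95% Wilson interval 28.4 to 33.7), 13.9% in BrM 2 (10.2 to 18.7) and 13.1% in BrM 3 (10.1 to 16.7). In MFP 1 to 3 it was 10.97% (8.91 to 13.5), 13.3% (11.3 to 15.5) and 10.6% (6.96 to 15.8). These intervals cover the counting error of cells only. The means were 19.3% ± 10.1 (SD, n = 3) in BrM and 11.6% ± 1.45 (n = 3) in MFP, a difference of 7.70 percentage points that did not pass an exact two-sided permutation test (p = 0.2, where 3 libraries against 3 cannot go below 0.1). Without BrM 1 the difference was 1.88 points. BrM 1 also had the deepest cells, and after thinning to 2000 UMIs its share was 19.7%, beside 15.6% and 6.59% in BrM 2 and 3 and 6.65%, 9.74% and 9.63% in MFP. After thinning to 4000 UMIs, which leaves out shallower cells, it was 28.2%, beside 8.70% and 4.43% in BrM 2 and 3 and 10.8%, 13.4% and 8.96% in MFP.

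**Figure D1:**
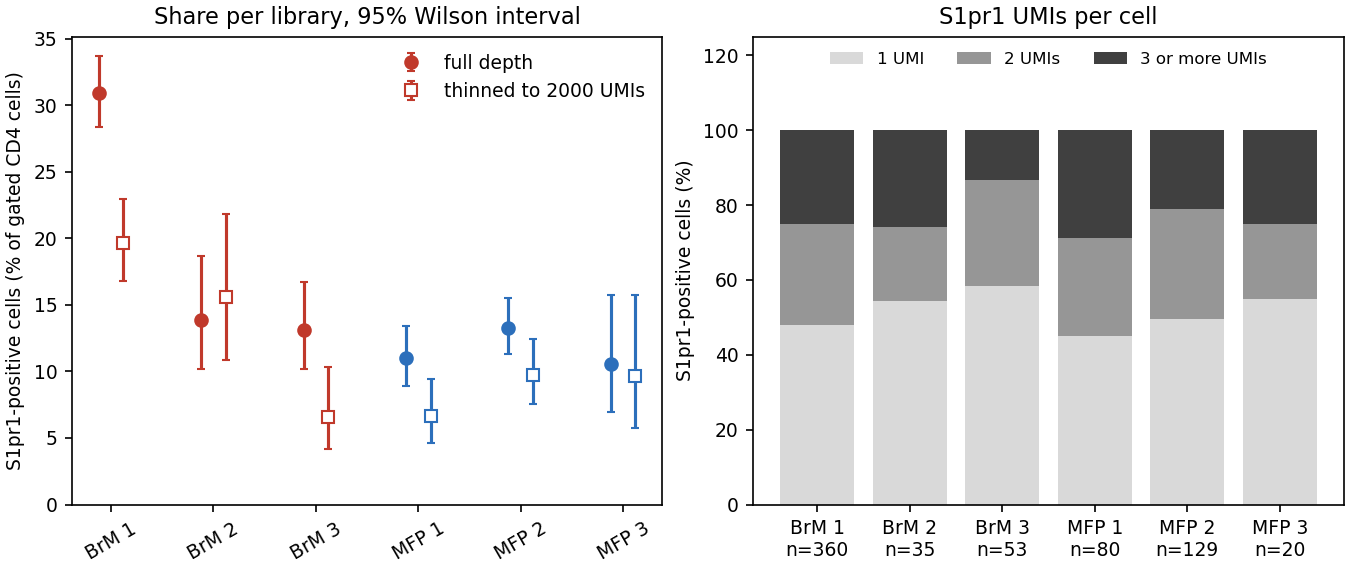
Left: S1pr1-positive cells as a percentage of gated CD4 cells in each library, at full depth (filled) and after thinning to 2000 UMIs per cell (open), with 95% Wilson intervals (BrM red, MFP blue). BrM 1 stands at 31.0% at full depth, above the intervals of the other 5 libraries, which overlap each other, and at 19.7% thinned, where its interval overlaps that of BrM 2. Right: the percentage of S1pr1-positive cells with 1, 2, or 3 or more S1pr1 UMIs, with the number of cells under each bar.

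The S1pr1-positive cells were set against activated CD4 cells, which passed the same gate with at least 1 UMI of Pdcd1, Tnfsf8 or Tnfsf11 and 0 of S1pr1 (1685 cells, 109 to 502 per library). Their median depth was higher, at 4868.5 to 6998.5 UMIs per cell. Both sets were drawn from the same cells by their mRNA, so the differences describe the sets, and no p-value is printed for single genes. The counts below use the adjusted p of edgeR as a cut-off only. Genes that vary with S1pr1 or with the activation genes were favoured by the selection itself. Over all genes, 1367 of 6583 passed the limit of 0.05 on the adjusted p of edgeR (percent called 20.8), 714 higher (10.8) and 653 lower (9.92) in S1pr1-positive cells. Of these, 422 and 563 had the same direction in all 6 libraries. The share of all genes is the background for the counts that follow, and nothing is read from a count near it. How many of all tested genes did not overlap between the cell sets was not counted. Statements of no overlap between the sets therefore describe the named genes only.

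Most tested genes of egress and of the naive or memory state were higher in the S1pr1-positive cells. Klf2 (chromosome 8, 72319033 to 72321656, plus strand) had 363, 580 and 398 CPM in BrM 1 to 3, and 559, 433 and 754 CPM in MFP 1 to 3. In activated cells it had 77.4, 59.5 and 33.1 CPM in BrM and 47.1, 55.7 and 84.6 CPM in MFP. Every S1pr1-positive sum lay above every activated sum, with a ratio of the means of 8.64 and a log2 difference of 3.19 (SE 0.16). Il7r, the interleukin-7 receptor chain that supports survival of resting T cells, had 562, 490 and 451 CPM in BrM and 586, 654 and 428 CPM in MFP, against 78.7 to 213 CPM in activated cells. S1pr4, a related receptor for the same lipid, ranged from 83.8 to 165 CPM against 31.5 to 68.9 CPM. The 2 sets did not overlap for Il7r or S1pr4.

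Of the 20 tested genes of the egress and lymphoid homing list, 14 were higher and 2 lower, with a median log2 difference of 0.88 beside -0.01 over all tested genes. The higher genes included the integrin chains Itga4 (log2 difference 0.92), Itgb1 (1.15) and Itgb7 (1.52), the chemokine receptors Cxcr3 (0.84) and Ccr2 (1.38), and Ly6c2 (2.91), a surface protein of memory T cells. The lower genes were Ccr6 and Itgb2, the latter at -0.34. Ccr7, a lymph node homing receptor, had 31.3 to 90.5 CPM against 36.5 to 214 CPM, overlapping ranges. Cd44, which is raised on cells that have met antigen, had 154 to 214 CPM in S1pr1-positive and 158 to 340 CPM in activated cells. Cd69 overlapped too, with 183 to 693 CPM against 194 to 427 CPM.

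Among 24 tested naive and memory transcription factors and regulators, 17 were higher and 2 lower (median 0.58). Tcf7, which maintains naive and memory T cells, had 137, 142 and 170 CPM in BrM and 192, 246 and 214 CPM in MFP, against 61.6 to 99.6 CPM in activated cells. Lef1, its close relative, had 45.1 to 106 CPM against 9.26 to 33.3 CPM, and neither gene overlapped between the sets. Satb1, a chromatin organiser of T cells, had 168 to 288 CPM against 51.6 to 168 CPM. Id3 was higher (2.31) and Id2, its counterpart in effector cells, was lower (-0.88). The T cell receptor signalling list was mixed, with 8 genes higher and 3 lower of 24. Its higher genes included Txk (1.80) and Trat1 (0.90). Of the S1P pathway, 3 of 16 tested genes were higher (Klf2, S1pr4 and Dock2) and Stat3 was lower.

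Most tested activation genes were lower. Of 21 tested activation and Nr4a genes, 14 were lower and only Icos was higher (median -1.12). Ccl1, a chemokine made by stimulated T cells, had 2 UMIs in all S1pr1-positive cells and 3590 in all activated cells. Penk, which encodes an opioid precursor, had 9 and 6084 UMIs. Tnfrsf4, the costimulatory receptor OX40, had 71.4 to 200 CPM against 519 to 889 CPM. Inhibitory receptors and their companions were lower in 8 of 13 tested genes and higher in 1, Vsir (median -1.99). Lag3 had 7 UMIs in all, at 0 to 6.45 CPM per library, against 58.1 to 145 CPM in activated cells. Rgs16, a brake on chemokine receptor signalling, had 14.7, 19.3 and 26.6 CPM in BrM and 38.5, 51.6 and 10.2 CPM in MFP, against 237 to 599 CPM. For Ccl1, Penk, Tnfrsf4, Lag3 and Rgs16 every S1pr1-positive sum lay below every activated sum.

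T helper genes divided between the sets, with 4 of 18 higher and 8 lower. Ifng had 86.2, 45.1 and 31.9 CPM in BrM and 79.2, 141 and 61.2 CPM in MFP, against 271 to 540 CPM in activated cells, without overlap. Xcl1, a chemokine that attracts dendritic cells, had 8.996 to 37.2 CPM against 339 to 1488 CPM. Ccl5, a chemokine of memory and effector cells, was higher in all 6 libraries, with 674 to 1859 CPM against 357 to 1484 CPM. Glycolysis and hypoxia genes were lower in 10 of 20 and higher in 1, Slc2a3 (median -0.35). Proliferation genes were lower in 1 of 23, Mcm6.

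Interferon-response genes were higher in the S1pr1-positive than in the activated cells. Of 29 tested type I interferon genes, 18 were higher and none lower (median 0.48), and of 20 interferon-gamma genes, 12 were higher and none lower (median 0.53). Oasl2, a relative of the antiviral oligoadenylate synthetases, had 38.8, 45.1 and 85.0 CPM in BrM and 36.2, 34.9 and 81.6 CPM in MFP, against 6.61 to 22.2 CPM. This direction depended on the comparator. Against the 735 gated CD4 cells with neither S1pr1 nor the activation genes, all 29 type I interferon genes had a negative log2 difference (median -0.22) and 4 were lower past the limit, Ifit1, Ifit3, Isg20 and Rsad2. After thinning to 2000 UMIs the median against activated cells was 0.06, with 12 of 23 tested genes positive.

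The same comparison with cells that had neither gene group gave 66 of 3995 genes (percent called 1.65), 20 higher and 46 lower. Klf2 kept its direction, with 216 to 366 CPM in the cells with neither and a log2 difference of 0.84 (SE 0.11). Il7r (0.53), S1pr4 (0.53), Itgb1 (0.55), Tcf7 (0.60), Lef1 (0.68) and Ccr7 (1.51) were also higher in S1pr1-positive cells past the limit. Ifng (-1.38), Ccl5 (-0.79), Xcl1 (-2.15) and Rgs16 (-1.90) were lower. For Ccl5 this is the opposite direction to that against activated cells. Itga4, Itgb7, Cxcr3, Ccr2, Satb1, Id3, Txk, Trat1 and Slamf1, higher against activated cells, were not among the called genes here. Of the egress list 7 of 19 tested genes were higher. Of the naive and memory list 3 of 21 were higher and 1 lower, and of the T cell receptor signalling list 0 of 24 were called.

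**Figure D2:**
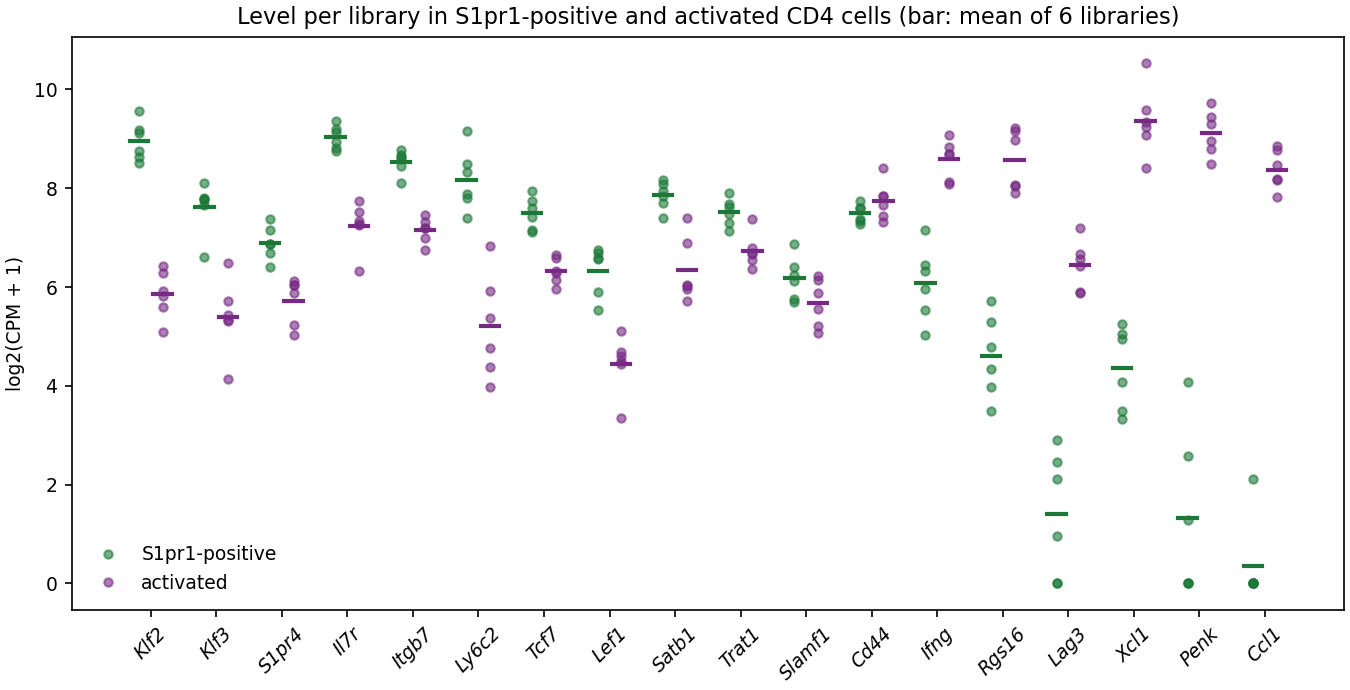
Level of 18 genes on a log2(CPM + 1) scale in S1pr1-positive (green) and activated (purple) CD4 cells, 1 point per library, with a bar at the mean of 6 libraries. Klf2, Il7r and Tcf7 are above in S1pr1-positive cells without overlap, Cd44 overlaps, and Rgs16, Lag3, Xcl1, Penk and Ccl1 are below.

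Between the sites, the S1pr1-positive cells differed in few single genes. The rule did not use the site. The edgeR quasi-likelihood test with Benjamini-Hochberg adjustment called 10 of 3926 tested genes (percent called 0.255), 4 higher (0.102) and 6 lower (0.153) in BrM. At an unadjusted p under 0.05 there were 336. The higher genes were Ifitm3, Ifitm2, Ly6c2 and Vim, and the lower genes were Fosb, Fos, Junb, Cers4, Eprs and Gm42418. The last is a gene model outside the naming rule, on a ribosomal RNA repeat, and was named after its values were seen. It had 5548, 2888 and 4668 CPM in BrM and 8942, 7514 and 12600 CPM in MFP and fell by 1.17 (SE 0.18, edgeR adjusted p = 0.00387). The count of called genes was 4 without BrM 1 and 3 without MFP 2. With DESeq2 it was 2, Ifitm3 and Fosb, and the other 8 genes did not pass.

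Ifitm3 and Ifitm2, genes of 1 chromosomal cluster for membrane proteins that restrict virus entry and respond to interferon, had the largest increases among the 10. Ifitm3 (chromosome 7, 141009586 to 141010770, minus strand) had 656, 451 and 324 CPM in BrM 1 to 3, and 70.1, 69.9 and 132 CPM in MFP 1 to 3. Every BrM library was above every MFP library, by a ratio of means of 5.25 and a log2 fold change of 2.63 (SE 0.27, edgeR adjusted p = 3.02e-05). Ifitm2 (chromosome 7, 140954837 to 140955987, minus strand) had 401, 284 and 79.7 CPM in BrM and 56.6, 48.3 and 20.4 CPM in MFP, again without overlap (log2 fold change 2.50, SE 0.39, edgeR adjusted p = 0.00387). The family members are similar in sequence, so reads could be divided between them in counting. Ifitm3 passed when each library in turn was left out, while Ifitm2 did not pass without BrM 1 or without MFP 2. In the libraries of lower total UMIs alone the Ifitm3 log2 fold change was 3.17, and in those of higher total 1.50.

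Macrophages also express Ifitm3, and free mRNA can enter T cell droplets. The summed level of 8 macrophage genes (C1qa, C1qb, C1qc, Lyz2, Apoe, Adgre1, Cd68 and Fcgr1) in the S1pr1-positive cells was 27.5, 670 and 659 CPM in BrM 1 to 3, and 11.3, 25.0 and 408 CPM in MFP 1 to 3. BrM 1, with the highest Ifitm3 level, had the lowest level of these genes in BrM, and MFP 3, with 408 CPM of them, had 132 CPM of Ifitm3. The part of free mRNA in the difference was not tested.

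Sequence near the starts of both Ifitm genes matches a motif of the interferon-stimulated response element, shown here because the 2 genes moved together. The motif searched was GAAA, any 2 bases (NN) and GAAA, on both strands, in windows from 250 bases before to 50 after the start. It occurs in 1131 of 32851 such windows (3.44%). The 2 stretches of 30 bases that follow are from RefSeq on GRCm38.p6 and read 5′ to 3′ along each gene, with the fixed letters of the motif in capitals. That of Ifitm2 is at chr7:140955978-140956007 and that of Ifitm3 at chr7:141010713-141010742, both on the minus strand. Counted from the annotated RefSeq start, the first base is at -46 for Ifitm2 and at 3 for Ifitm3. A match describes the sequence and is not evidence of binding.
Ifitm2: GAAAagGAAAttgctagagaaagggcgggt
Ifitm3: GAAAagGAAActtctgaGAAAccGAAActg
The Ifitm2 stretch holds 1 match and the Ifitm3 stretch holds 2.

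No gene of the wider interferon lists passed between sites. Of 28 tested type I interferon genes, 26 had a log2 fold change above 0, and the median was 0.29 beside -0.00 over all tested genes. For 6 of the 28 the BrM and MFP levels did not overlap, against 17.3% of all tested genes. Bst2, which tethers budding viruses, had 320, 316 and 446 CPM in BrM and 213, 265 and 245 CPM in MFP (log2 fold change 0.51, SE 0.20, edgeR adjusted p = 0.437). Isg15, a ubiquitin-like interferon product, had 336, 245 and 494 CPM in BrM and 382, 306 and 255 CPM in MFP, overlapping. Of 18 interferon-gamma genes, 16 were positive (median 0.21) and none passed. Without BrM 3 the type I median was 0.17, with 20 of 29 tested genes positive.

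Ly6c2 and Vim were the other genes higher in BrM. Ly6c2, also a monocyte gene, had 573, 361 and 319 CPM in BrM and 167, 221 and 234 CPM in MFP (log2 fold change 1.08, SE 0.22, edgeR adjusted p = 0.0459). The near-identical Ly6c1 had 16 UMIs in all, so the division of reads between the copies is uncertain. Vim, the intermediate filament vimentin, had 1293, 1760 and 1684 CPM in BrM and 1016, 917 and 826 CPM in MFP (log2 fold change 0.71, SE 0.15, edgeR adjusted p = 0.0459). Neither overlapped between sites. Lgals1, which encodes galectin-1, followed with 1200, 1263 and 1094 CPM in BrM and 878, 656 and 724 CPM in MFP, but missed the limit (log2 fold change 0.61, SE 0.14, edgeR adjusted p = 0.142). Ly6c2 did not pass without BrM 1, MFP 1 or MFP 2, and Vim passed only where BrM 1 was the library left out.

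The AP-1 genes Fosb, Fos and Junb were lower in the brain tumours. Fosb (chromosome 7, 19302696 to 19310051, minus strand), a FOS-family subunit of AP-1, had 26.5, 25.8 and 69.0 CPM in BrM 1 to 3, and 145, 250 and 153 CPM in MFP 1 to 3. It fell by 2.58 on the log2 scale (SE 0.34, edgeR adjusted p = 0.000677). Fos had 62.0, 122 and 117 CPM in BrM and 224, 255 and 255 CPM in MFP and fell by 1.59 (SE 0.26, edgeR adjusted p = 0.00571). Junb, a partner subunit, had 1873, 1592 and 2146 CPM in BrM and 2730, 3208 and 2610 CPM in MFP and fell by 0.66 (SE 0.13, edgeR adjusted p = 0.0365). The sites did not overlap for any of the 3.

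Of 20 tested immediate-early genes all had a negative log2 fold change (median -0.61), 3 passed, and for 11 the site levels did not overlap, against 17.3% of all tested genes. Zfp36, an mRNA decay factor, had 71.02, 90.2 and 79.7 CPM in BrM and 152, 151 and 173 CPM in MFP, with an edgeR adjusted p of 0.0584. Dusp1, a phosphatase of MAP kinases, had 169, 219 and 212 CPM in BrM and 265, 288 and 326 CPM in MFP, with an adjusted p of 0.366 (edgeR). The list median was -0.46 in the libraries of lower UMI total and -0.84 in those of higher total, and for Fosb the log2 fold changes were -2.98 and -1.66. These transcripts also respond to tissue dissociation, and whether digestion of brain and fat pad tumours differed in this respect was not tested. Fosb did not pass without BrM 1, Fos without BrM 1 or MFP 2, and Junb without BrM 1, BrM 2, MFP 1 or MFP 2.

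The other lower genes had unrelated roles. Cers4, a ceramide synthase, had 31.7, 32.2 and 31.9 CPM in BrM and 86.0, 73.2 and 102 CPM in MFP (log2 fold change -1.42, SE 0.28, edgeR adjusted p = 0.0371). Eprs, the glutamyl-prolyl-tRNA synthetase, had 116, 155 and 95.6 CPM in BrM and 260, 265 and 163 CPM in MFP (log2 fold change -1.08, SE 0.22, edgeR adjusted p = 0.0459). Neither gene overlapped between sites. Neither gene passed without BrM 1, MFP 1 or MFP 2, and Eprs did not pass without BrM 3 either.

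Klf2, Trat1, Slamf1 and Tcf7 did not pass between sites. Klf2 was lower in BrM by 0.41 on the log2 scale (SE 0.21, edgeR adjusted p = 0.591), with 363, 580 and 398 CPM against 559, 433 and 754 CPM, overlapping. Trat1 differed by 0.10 (SE 0.23, edgeR adjusted p = 0.951) and Slamf1 by 0.43 (SE 0.28, edgeR adjusted p = 0.688). Tcf7 did not overlap, with 137, 142 and 170 CPM in BrM and 192, 246 and 214 CPM in MFP, and missed the limit (log2 fold change -0.64, SE 0.21, edgeR adjusted p = 0.366). Of 18 tested egress genes 1 passed, Ly6c2. None of 21 naive and memory regulators passed, 17 of them with a negative value (median -0.28).

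**Figure D3:**
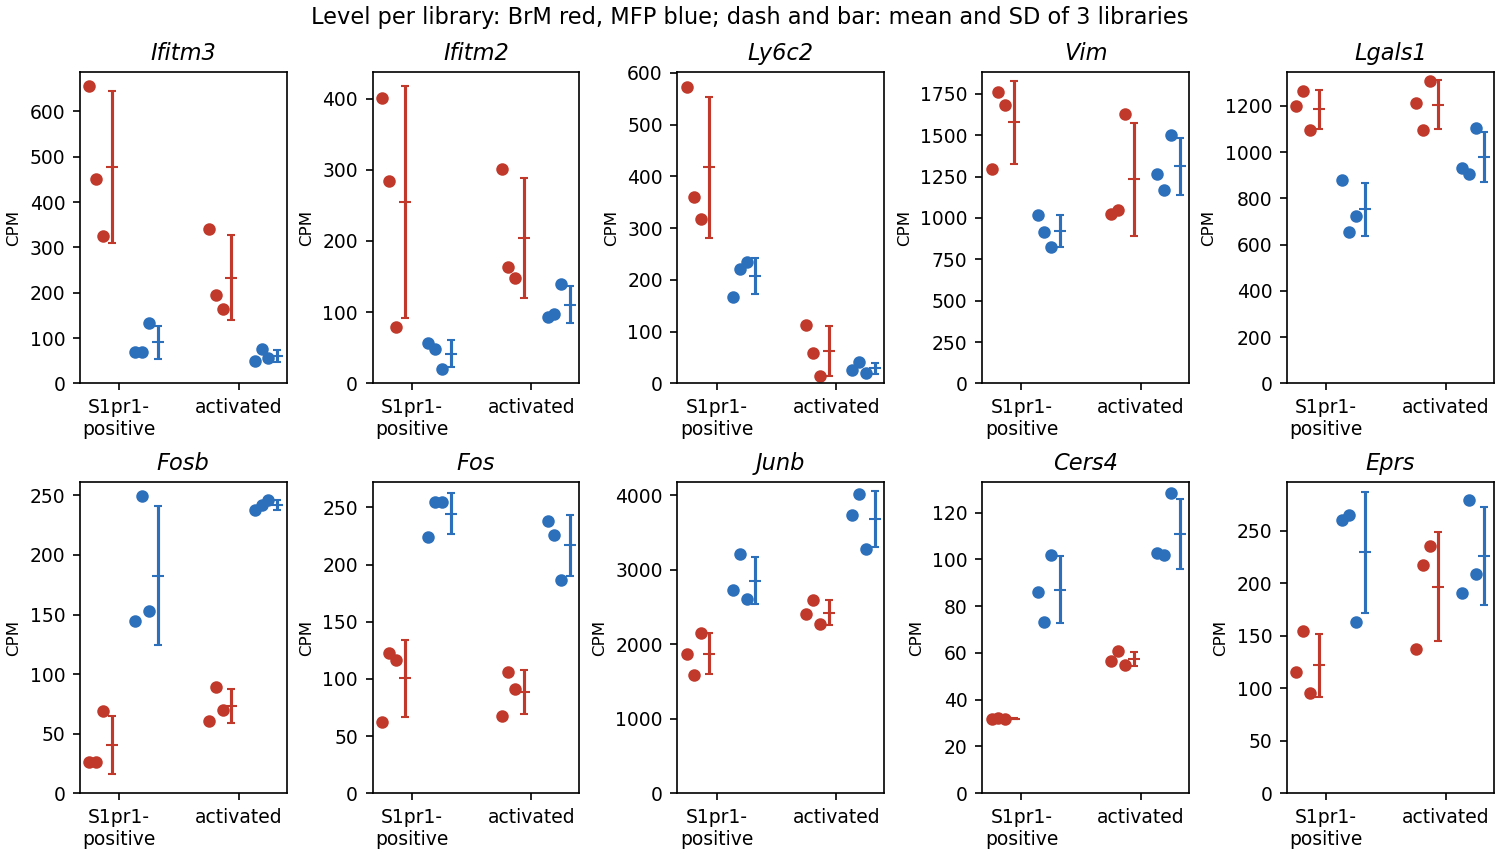
Level in CPM of the 9 named genes that passed between sites and of Lgals1, which did not, in S1pr1-positive (left of each panel) and activated CD4 cells (right), 1 point per library with mean and SD of 3 libraries (BrM red, MFP blue). In S1pr1-positive cells no gene overlaps between sites, and Ifitm3, Fosb and Fos are apart in activated cells as well.

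**Figure D4:**
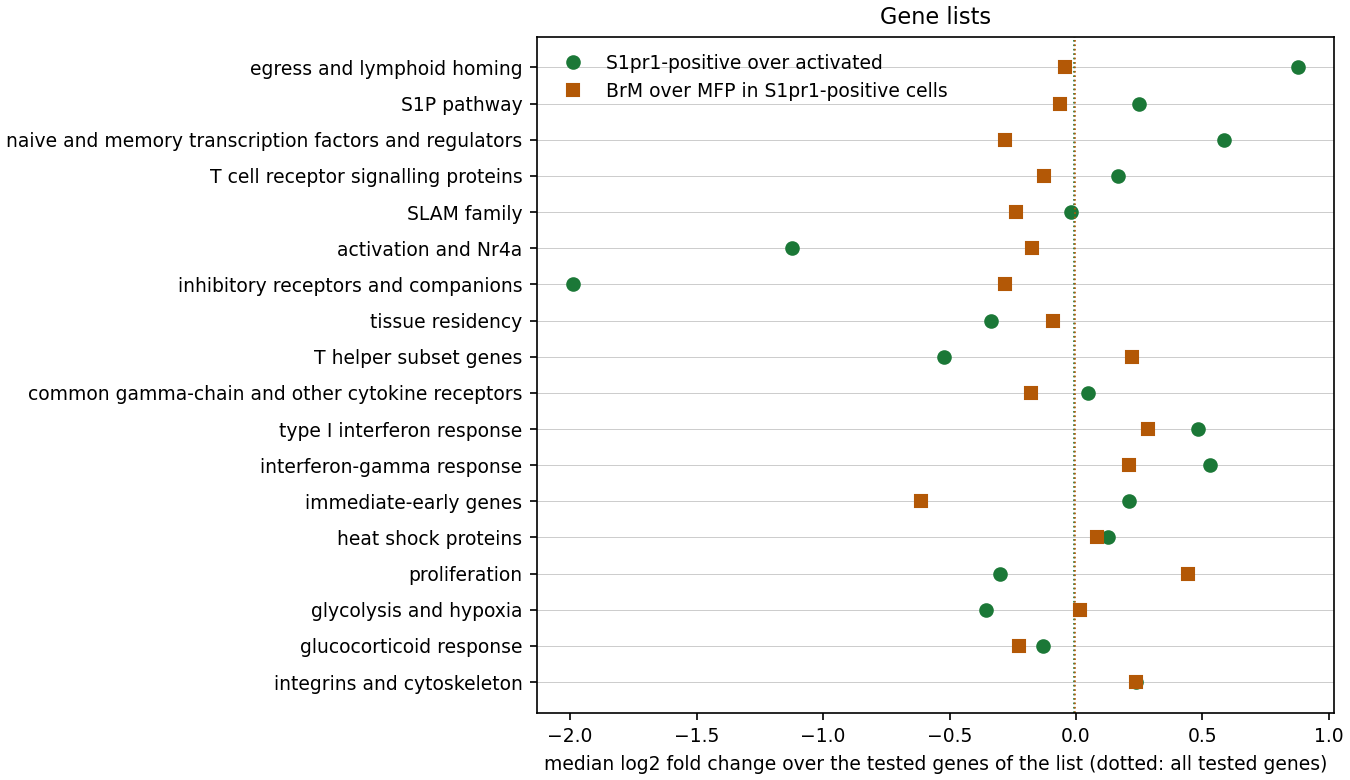
Median log2 difference over the tested genes of 18 lists, for S1pr1-positive against activated cells (green circles) and for BrM against MFP in S1pr1-positive cells (orange squares), with the median of all tested genes dotted. The immediate-early list is at -0.61 between sites, and the inhibitory list at -1.99 and the egress list at 0.88 between cell sets.

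The site effect was then compared with that in activated cells, by the interaction of site and cell set in 12 sums. This test called 42 of 7443 genes (percent called 0.564), 14 with a higher (0.188) and 28 with a lower (0.376) site effect in S1pr1-positive cells. Of the 10 genes called between sites, Vim was the only one that passed this test (interaction 0.73, SE 0.16, edgeR adjusted p = 0.0270). Not passing does not show that the site effects were equal. For Ifitm2 the effect was 2.50 in S1pr1-positive and 1.02 in activated cells (interaction 1.24, SE 0.35, edgeR adjusted p = 0.182). In activated cells alone, 99 of 8865 genes passed between sites (percent called 1.12), 51 higher (0.575) and 48 lower (0.541) in BrM. For Ifitm3 the effect in activated cells was 2.02 (SE 0.28, edgeR adjusted p = 0.0273) and the interaction 0.59 (SE 0.27, edgeR adjusted p = 0.707). Fosb in activated cells fell by 1.65 (SE 0.16, edgeR adjusted p = 0.00934), with an interaction of -0.73 (SE 0.34, edgeR adjusted p = 0.719). Fos, Cers4 and Gm42418 were also lower in BrM in activated cells (edgeR adjusted p = 0.0364, 0.0441 and 0.0426). All 21 tested immediate-early genes were negative there (median -0.55), and 5 passed. The interaction median of that list was -0.10, and none of its genes passed. The lower immediate-early level was thus not particular to the S1pr1-positive cells.

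The genes of higher site effect included calcium-binding and cytoskeletal genes. S100a4 had 1521, 1695 and 1439 CPM in BrM and 1321, 1125 and 938 CPM in MFP in the S1pr1-positive cells. In activated cells the order was reversed, with 1267, 1666 and 1291 CPM in BrM and 2156, 1946 and 2233 CPM in MFP (interaction 0.93, SE 0.13, edgeR adjusted p = 0.00289). The sites did not overlap in either set. Its neighbour S100a6 had 1134, 1031 and 1530 CPM against 900, 914 and 714 CPM, and in activated cells 870, 588 and 1011 CPM against 1135, 1114 and 1149 CPM (interaction 0.87, SE 0.15, edgeR adjusted p = 0.00884). Capg, an actin-capping protein, had an interaction of 1.06 (SE 0.19, edgeR adjusted p = 0.00891). Of the 25 tested genes of the integrin and cytoskeleton list, 5 passed, all higher: Capg, Lgals3, S100a4, S100a6 and Vim. None of these 5 other than Vim passed between sites within the S1pr1-positive cells alone.

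Of 16 tested tissue residency genes 2 passed, Cxcr6 and Rgs1, both with a higher site effect. Cxcr6, a chemokine receptor of tissue T cells, had 309, 219 and 117 CPM in BrM and 147, 166 and 20.4 CPM in MFP in S1pr1-positive cells, overlapping. In activated cells it had 327, 237 and 247 CPM in BrM and 571, 586 and 398 CPM in MFP (interaction 1.63, SE 0.28, edgeR adjusted p = 0.00884). Rgs1, a brake on chemokine receptor signalling, had 1118, 548 and 791 CPM in BrM and 998, 895 and 642 CPM in MFP, overlapping. In activated cells it had 897, 552 and 668 CPM against 1618, 1665 and 978 CPM (interaction 0.86, SE 0.14, edgeR adjusted p = 0.00884).

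Of the 28 genes of lower site effect, 25 encode cytosolic ribosomal proteins, a list chosen after the values were seen. All 81 tested ribosomal protein genes had a negative interaction (median -0.35). They made up 27.1%, 29.5% and 28.4% of UMIs in S1pr1-positive cells of BrM 1 to 3 and 29.2%, 30.1% and 29.9% in MFP 1 to 3. In activated cells the shares were 26.9%, 27.2% and 25.8% in BrM and 23.6%, 24.4% and 22.5% in MFP. The order of the sites was opposite in the 2 sets, with overlap in the first and none in the second. The remaining 3 genes were Npm1, Il2 and Il6st. Npm1, a nucleolar protein of ribosome assembly, had 980 to 1089 CPM in BrM and 1019 to 1084 CPM in MFP in S1pr1-positive cells. In activated cells it had 1116, 1653 and 1938 CPM in BrM and 962, 946 and 871 CPM in MFP (interaction -0.83, SE 0.16, edgeR adjusted p = 0.0125). Il2 (-2.91) and Il6st (-2.52) rested on 43 and 61 UMIs in S1pr1-positive cells. Ccr7 had an interaction of -1.88 and did not pass (SE 0.45, edgeR adjusted p = 0.0569). Of the proliferation list, 22 of 25 tested genes had a negative interaction (median -0.96), and none passed. In activated cells all 25 were higher in BrM (median 1.77), and 8 passed. In S1pr1-positive cells 12 of 14 tested proliferation genes were positive between sites (median 0.44), and none passed.

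The interaction count depended on single libraries. Without MFP 1 or without MFP 2 it was 1 gene, without BrM 1 it was 10 and without BrM 3 it was 86. Of the named genes only S100a4 passed without MFP 1 or without MFP 2. The ribosomal median was -0.34 without MFP 1, with 80 of 81 genes negative, and -0.32 without BrM 1.

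**Figure D5:**
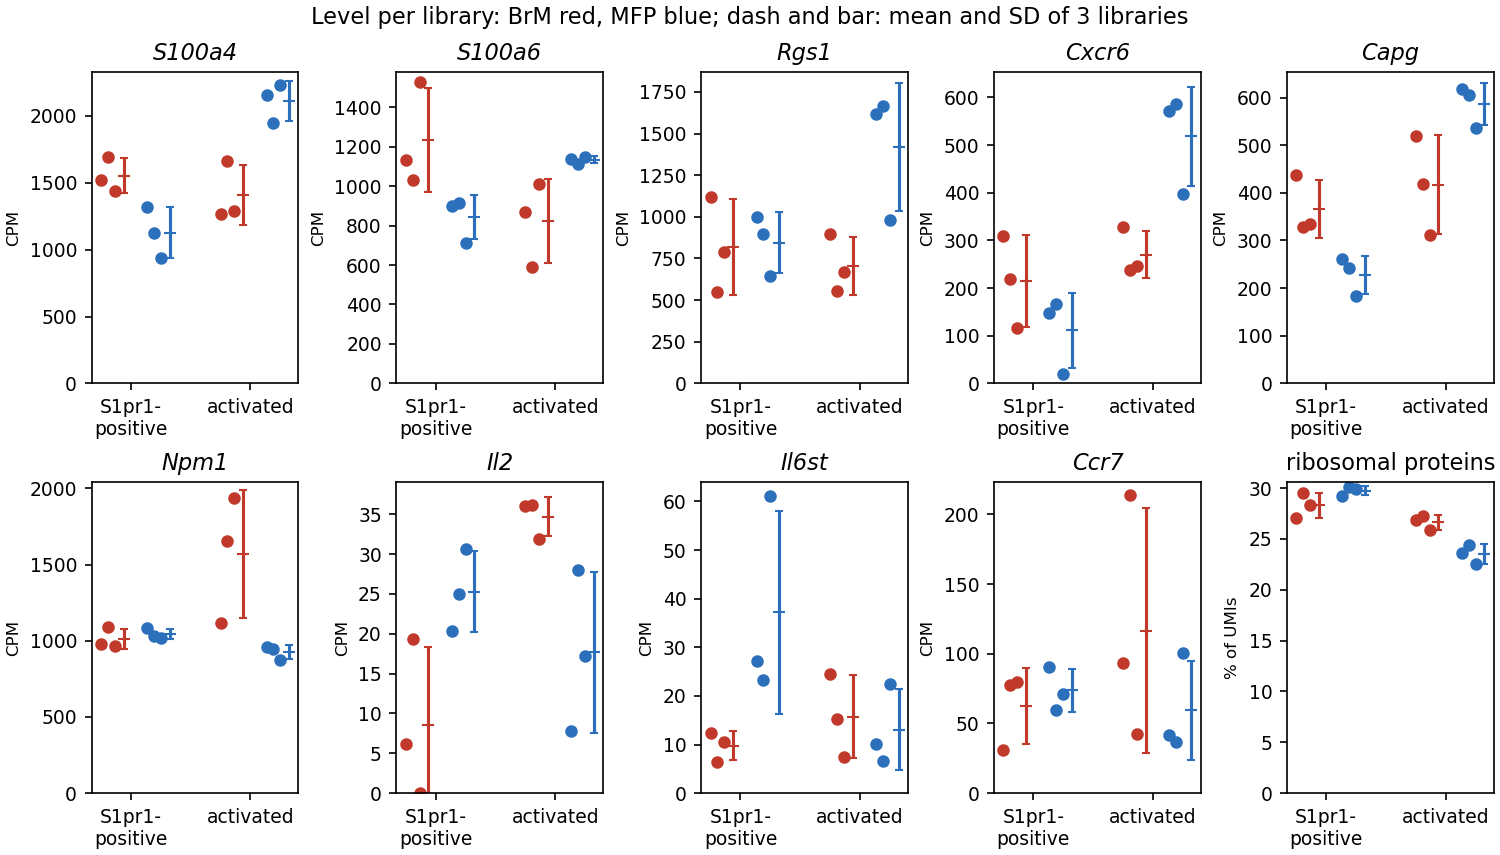
Level in CPM of the 8 named genes with a called interaction and of Ccr7, which did not pass, and the percentage of UMIs on ribosomal protein genes, in S1pr1-positive (left of each panel) and activated CD4 cells (right), 1 point per library with mean and SD of 3 libraries (BrM red, MFP blue). S100a4 and S100a6 are higher in BrM in the first set and lower in the second, and Npm1 is higher in BrM only among activated cells.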

How the data were processed

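The deposited matrices give unnormalized UMI counts of every gene in every barcode for 6 libraries, prepared with the 10x 3' version 3 kit per the labels' protocols and processed by the authors with Cell Ranger 4.0 on mm10, per the submitters' processing notes. Which gene annotation was used is not given in the sources used here. Members and gene lists were chosen with earlier results of these data known. Counts were summed per library and cell set (98089 to 2112090 UMIs for S1pr1-positive cells) and tested with the quasi-likelihood test of edgeR 4.0.16 in R 4.3.3, with TMM scaling, filterByExpr and Benjamini-Hochberg adjustment at 0.05. The 14 gate genes were left out of the tests. The comparison of cell sets and the interaction had the library as a term. CPM are counts per 1000000 UMIs of the sum. The SE is the absolute unshrunk edgeR coefficient, on the log2 scale, divided by the square root of the F statistic. The printed log2 values are the shrunken ones that edgeR reports.

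Named between sites were up to 12 called genes per direction at 20 CPM or more, filled to 5 by lowest p. Between sets up to 15 per direction at 50 CPM or more with 1 sign in all libraries were eligible, and for the interaction the 5 of lowest p per direction. Ribosomal, mitochondrial, receptor-segment and Gm models were counted only, and list members could be examples. Scrublet in scanpy 1.11.5 marked 0.0125% to 3.04% of cells by its automatic threshold, too few in 4 libraries to be used, so no cell was removed. As an alternative the 7% of highest scores were left out, which removed 23 of the 677 cells. The scripts were tested on simulated counts. Gene positions come from GENCODE on GRCm38. Same-numbered libraries of the sites correlated at 0.0466, -0.00348 and 0.0776 in their deviations, so the numbers were not used as pairs. With 3 libraries per site this cannot exclude pairing. Alternatives were another scaling, no expression filter, DESeq2 1.42.0, a term for library kind, single libraries left out, thinned counts, stricter cell limits and other comparison cells.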

Additional observations from a re-analysis of the deposited data

Results flagged for a closer look

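The site effect of 42 genes differed between S1pr1-positive and activated CD4 cells by the edgeR interaction test. The named genes were S100a4 (0.93 on the log2 scale), S100a6 (0.87), Rgs1 (0.86), Cxcr6 (1.63), Capg (1.06), Npm1 (-0.83), Il2 (-2.91) and Il6st (-2.52). For S100a4 and S100a6 the sites were in opposite order in the 2 cell sets, without overlap in either. Of the named genes only S100a4 passed without MFP 1 or without MFP 2. After thinning to 2000 UMIs, S100a4, S100a6, Rgs1, Capg and Npm1 were weaker or no longer passed. Over the alternatives the interaction ranged from 0.39 to 1.06 for S100a4, from 0.25 to 0.99 for S100a6 and from -1.09 to -0.08 for Npm1.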

How the results depend on the processing

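The count between sites (10 genes) was 48 without an expression filter, 2 with DESeq2, 18 with a term for library kind, 0 after thinning to 2000 UMIs (4 libraries, 97 genes at an unadjusted p under 0.05), 98 in the 3 libraries of lower UMI total and 50 in the 3 of higher total, and 3 to 13 with single libraries left out. With the replicate number as a block it was 5. Whether the numbers mark pairs is not given in the labels. The count between cell sets (1367) was 260 after thinning, 884 with at least 2 S1pr1 UMIs, 66 against cells with neither gene group, 610 in BrM libraries alone (a choice made after seeing the data), and 966 to 1360 with single libraries left out. Oasl2 reversed to -0.19 against cells with neither. The interaction count (42) was 87 without a filter, 17 with DESeq2, 9 after thinning, 64 at no more than 5% mitochondrial UMIs, 69 with at least 2 S1pr1 UMIs, and 1 to 86 with single libraries left out. The fits with fewer libraries or cells had fewer samples or genes; otherwise the cause was not tested. The share difference was 1.88 to 10.8 points with single libraries left out. Libraries with under 20 cells were left out of a fit. Where 1 library stood alone in a site, it was assumed to vary like the others.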
